A study of Ambystoma mexicanum with 12 samples.

Results

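Collagens and the proteins that modify, fold, process and cross-link them were examined in the regenerating forelimb of the axolotl (Ambystoma mexicanum, albino strain). Members were the genes of the count table whose assembly name is that of a collagen chain, a lysyl oxidase, a lysyl hydroxylase, a prolyl hydroxylase, the collagen chaperone SERPINH1 or a procollagen C-proteinase enhancer. The 3 collagen IX genes were left out, and MSTRG.16324, which the study named COL5A1, was added. The rule found 50 genes of 36917. They were 7 fibrillar collagens, 5 network-forming collagens, 7 fibril-associated (FACIT) collagens, 11 other collagens, 19 genes of modifying proteins, and COL4A3BP, which shares the prefix of a collagen name but encodes a ceramide transfer protein. COL1A1, COL1A2, COL2A1, COL4A1, COL4A5, COL6A1, COL6A6 and LOX were not analysed here, so every sum over collagens covers the chains counted and not the whole matrix.

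The 6 Am580 blastemas came from axolotls given 25 nM Am580, an agonist selective for retinoic acid receptor alpha, from 24 h after amputation through the forearm and for 5 days. The 6 DMSO blastemas came from axolotls given the vehicle over the same days. Right forelimb blastemas were collected 24 h after the end of treatment, on day 7, the epidermis was peeled off, and each mesenchyme gave 1 library. The Am580 libraries were chosen by the study from the animals whose left limbs duplicated most, and the DMSO libraries from animals without duplication, so the choice of animals cannot be told apart from the treatment.

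Collagen chains wind around each other into a rope-like helix, and their prolyl and lysyl residues are hydroxylated before the helix closes. Fibrillar collagens build the fibrils of connective tissue, network collagens build basement membranes and sheets, FACIT collagens decorate fibrils, and collagen VI forms beaded filaments around cells. Outside the cell, proteinases trim the ends of procollagen and lysyl oxidases cross-link the fibrils. In the salamander limb, connective tissue cells are known to carry the positional memory that retinoids shift towards the shoulder.

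The tissue label was checked against marker transcripts, given as CPM (counts scaled to the library's total with TMM factors). The connective tissue gene PRRX1 averaged 160 CPM with Am580 and 224 CPM with DMSO, and PDGFRA averaged 79.2 CPM with Am580 and 73.8 CPM with DMSO. Of the 7 tested genes of the connective tissue list 3 fell and none rose, and the others, PRRX1 and PDGFRA among them, were not called. Log2 fold changes were -1.95 for MSX2, -1.91 for MSX1 and -1.36 for FAP, and the list's median was -0.49. MSX1 was low throughout, at 0.172 to 0.275 CPM with Am580 and 0.552 to 1.18 CPM with DMSO. Muscle transcripts were abundant, summing to 5315 to 17352 CPM in Am580 libraries and 7672 to 18575 CPM in DMSO libraries. The osteoclast list summed to 317 to 701 CPM with Am580 and 2268 to 3567 CPM with DMSO, with 8 of 8 tested genes called lower. Beside the counts of the connective tissue, osteoclast and macrophage lists, 7.21% of all genes tested were called lower and 6.93% higher. The macrophage list summed to 891 to 1304 CPM with Am580 and 1698 to 2434 CPM with DMSO. Of its 6 tested genes 3 were called lower and 1 higher. The higher gene, MARCO, did not overlap between treatments (log2 fold change 1.22, SE 0.16, edgeR adjusted p = 0.000199). In bulk tissue, fewer cells of a type and less RNA per cell cannot be told apart. Total counts per library were 27226012 to 43793138, and a count of 0 allows up to 3 counts, or 0.0637 to 0.111 CPM, for counting error only.

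COL3A1, the chain of type III collagen, was the most abundant member per exon length, at 893 ± 214 CPM per kb of exon with Am580 and 1015 ± 285 CPM per kb with DMSO (SD, n = 6 each). COL5A2 was at 151 CPM per kb with Am580 and 198 CPM per kb with DMSO. COL6A2 was at 198 CPM per kb with Am580 and 126 CPM per kb with DMSO. By mean level COL6A2 therefore came next after COL3A1 in the Am580 libraries but after COL5A2 and COL12A1 in the DMSO libraries. COL12A1 had 135 CPM per kb with Am580 and 127 CPM per kb with DMSO, and the COL11A1 gene MSTRG.7130 had 109 CPM per kb with Am580 and 105 CPM per kb with DMSO. COL6A3 was the next collagen, at 31.9 CPM per kb with Am580 and 22.2 CPM per kb with DMSO. The modifying proteins were led by the SERPINH1 gene MSTRG.1641, at 69.7 CPM per kb with Am580 and 61.1 CPM per kb with DMSO.

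**Figure D1:**
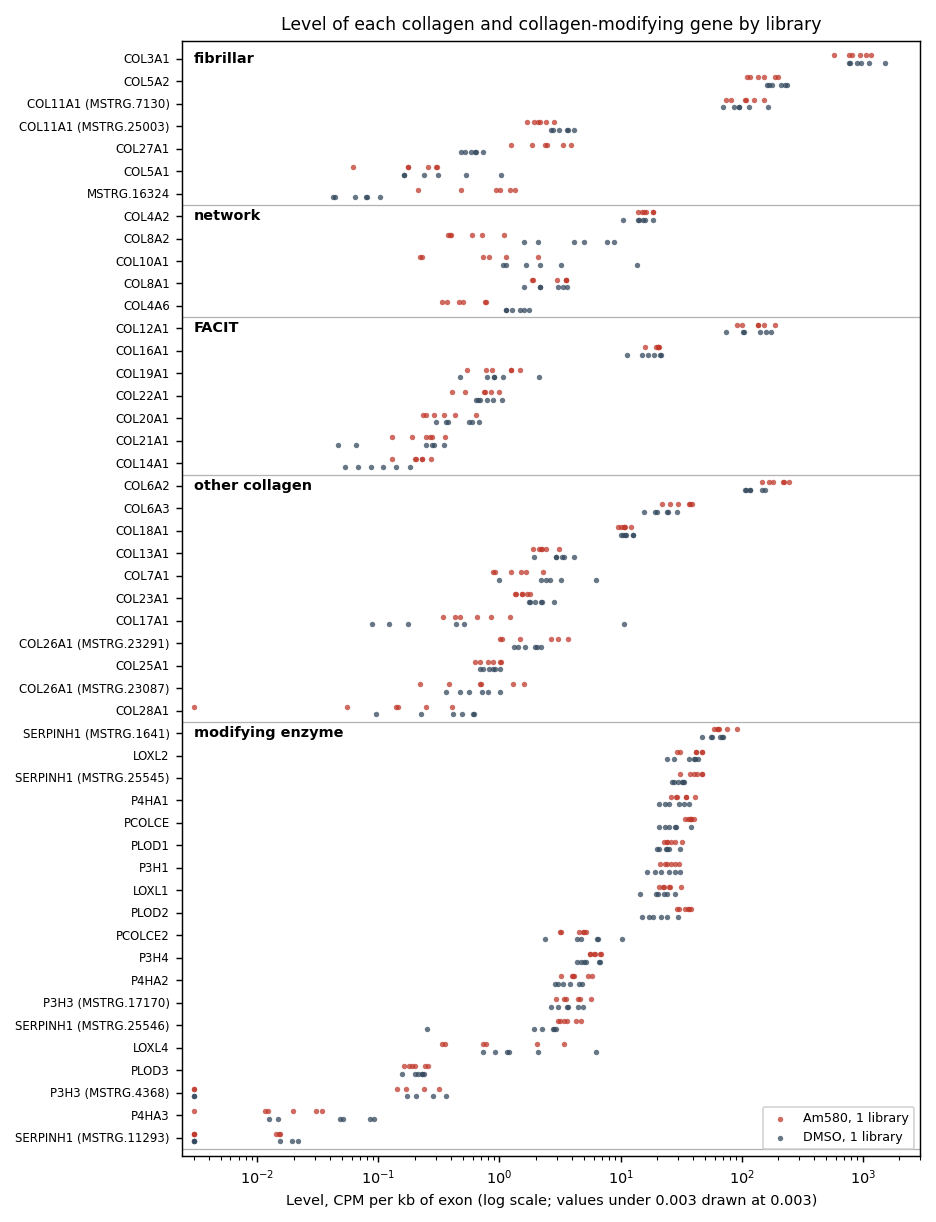
Each point is 1 library, placed by its level in CPM per kb of exon on a log axis, with Am580 in red above DMSO in dark grey for every collagen and modifying gene, grouped by class and ordered by the DMSO mean. COL3A1 stands apart with means of 893 and 1015 CPM per kb in Am580 and DMSO libraries, the Am580 points of MSTRG.16324 and COL27A1 lie to the right of their DMSO points, and those of COL8A2 and COL4A6 lie to the left.

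Of the 50 genes, 46 had at least 10 counts in at least 6 libraries and were tested with edgeR's quasi-likelihood test, with p-values adjusted by Benjamini-Hochberg over all 25879 genes tested. With Am580, 7 members were called higher and 4 lower at an adjusted p under 0.05, which is 11 of 46 (23.9%). Of all genes tested 14.1% were called, 6.93% higher and 7.21% lower. MSTRG.16324 is among the 7 and was made a member because the study listed it as changed, so its rise is not independent evidence. The median log2 fold change was 0.11 over the tested members and 0.0043 over all genes tested. Treatments did not overlap for 3 members that were higher and 2 that were lower with Am580, against 8.6% of all genes tested, 3.97% higher and 4.63% lower. The 3 that were higher were MSTRG.16324, COL27A1 and a SERPINH1 gene of low level (MSTRG.25546), which was not called. MSTRG.16324 is among these 3 too and passed the filter through the Am580 libraries alone, so its lack of overlap is not independent evidence either. It also enters the share called and the median. The 4 members not tested were COL28A1, with 0 to 12 counts per library, P4HA3, with 0 to 8 counts, a P3H3 gene of 179 exon bases (MSTRG.4368), with 0 to 2 counts, and a SERPINH1 gene (MSTRG.11293), with 0 or 1 count. COL4A3BP averaged 37.8 ± 3.61 CPM in Am580 libraries and 38.3 ± 2.0 CPM in DMSO libraries (SD, n = 6 each) and is in no class below.

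**Figure D2:**
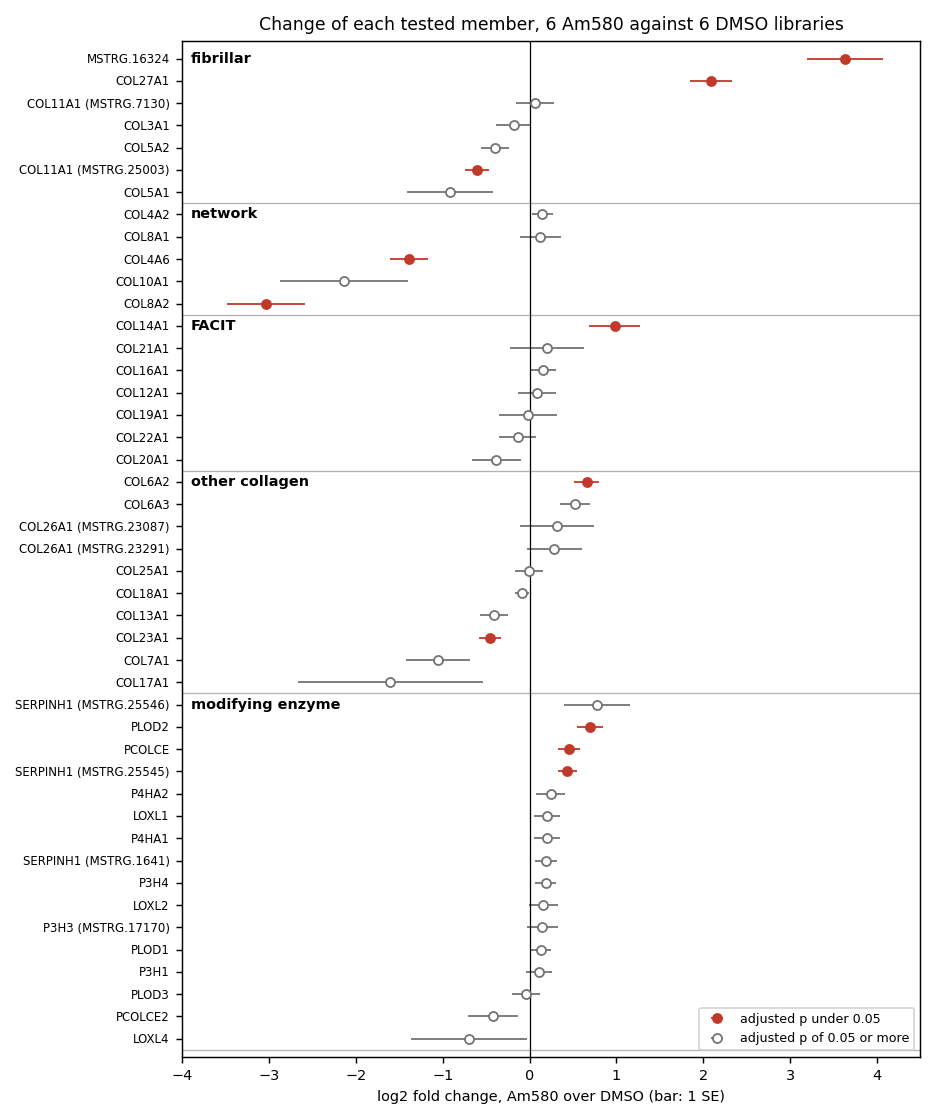
The log2 fold change of Am580 over DMSO is drawn for the 45 tested members of the 5 classes, with bars of 1 SE and filled red points where the edgeR adjusted p is under 0.05. Fibrillar and network collagens spread from -3.04 for COL8A2 to 3.63 for MSTRG.16324, while 13 of 16 tested modifying genes lie above 0.

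Among the 7 fibrillar genes, 2 rose and 1 fell, all of them at low levels, and the 3 most abundant did not pass the test. The called genes, MSTRG.16324 included, are 42.9% of the class, against 14.1% of all genes tested. COL3A1 had a lowest, median and highest value of 4994, 7631 and 10100 CPM with Am580, against 6666, 8097 and 13212 CPM with DMSO. Its treatments overlapped over most of their range, and the fold of 0.879 had a 95% interval of 0.652 to 1.19 (edgeR adjusted p = 0.633). COL5A2, a chain of type V collagen, which helps set fibril diameter, had 1044, 1360 and 1868 CPM with Am580, against 1538, 1829 and 2245 CPM with DMSO. Its Am580 values were below every DMSO value in 4 of 6 libraries, yet the log2 fold change of -0.40 (SE 0.16) did not pass (edgeR adjusted p = 0.131). The COL11A1 gene MSTRG.7130, a chain of type XI collagen, which nucleates fibrils, had 562, 818 and 1169 CPM with Am580, against 529, 717 and 1250 CPM with DMSO. Its fold of 1.04 had a 95% interval of 0.754 to 1.44 (edgeR adjusted p = 0.904). COL3A1, COL12A1 and MSTRG.7130 shared a library order within the treatments: Am580 replicate 1 or 4 was the lowest for each, Am580 replicate 3 or 5 the highest, and DMSO replicate 3 exceeded every other DMSO library.

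Both fibrillar genes that rose were separated from DMSO in all libraries. The study took its names for them from the top BLASTx hit among SwissProt proteins, mouse COL5A1 for MSTRG.16324 and human COL5A3 for MSTRG.18454. The assembly does not give these names, and no sequence was compared here. Their identity, and with it their place among the fibrillar collagens, is therefore unsettled here. The gene named COL27A1 by the assembly (MSTRG.18454, AMEXG_0030005783 from 1260545 to 1440026 in AmexG_v3.0.0), which the study named COL5A3, had a lowest, median and highest value of 5.03, 9.87 and 15.8 CPM with Am580, against 1.95, 2.46 and 2.96 CPM with DMSO. The lowest Am580 library, replicate 1, was above the highest DMSO library, and the fold was 4.25 (95% interval 2.94 to 6.13, edgeR adjusted p = 7.52e-05). MSTRG.16324 (AMEXG_0030004734 from 421750 to 849773) had 0.488, 2.25 and 3.12 CPM with Am580, against 0.0973, 0.166 and 0.237 CPM with DMSO. In counts these were 16 to 123 in Am580 libraries and 3 to 8 in DMSO libraries, so it passed the filter on low counts through the Am580 libraries alone. Replicate 1 was the lowest Am580 library for both genes and replicate 3 the highest. The log2 fold change of MSTRG.16324 was 3.63 (SE 0.44, edgeR adjusted p = 9.94e-05), from DMSO levels near the floor. The gene that the assembly itself names COL5A1 (MSTRG.29222) is a fragment of 1392 exon bases that averaged 0.295 ± 0.130 CPM in Am580 libraries and 0.562 ± 0.461 CPM in DMSO libraries (SD, n = 6 each), and it did not pass (edgeR adjusted p = 0.279).

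The fibrillar gene that fell was the less abundant COL11A1 gene, MSTRG.25003, at the start of another scaffold (AMEXG_0030032815 from 1 to 38156). It had 9.49, 11.9 and 15.7 CPM with Am580, against 14.8, 18.7 and 23.2 CPM with DMSO. Only the highest Am580 library, replicate 3, reached into the DMSO range, and the log2 fold change was -0.60 (SE 0.14, edgeR adjusted p = 0.0102). How reads divide between the 2 genes named COL11A1 was not tested.

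**Figure D3:**
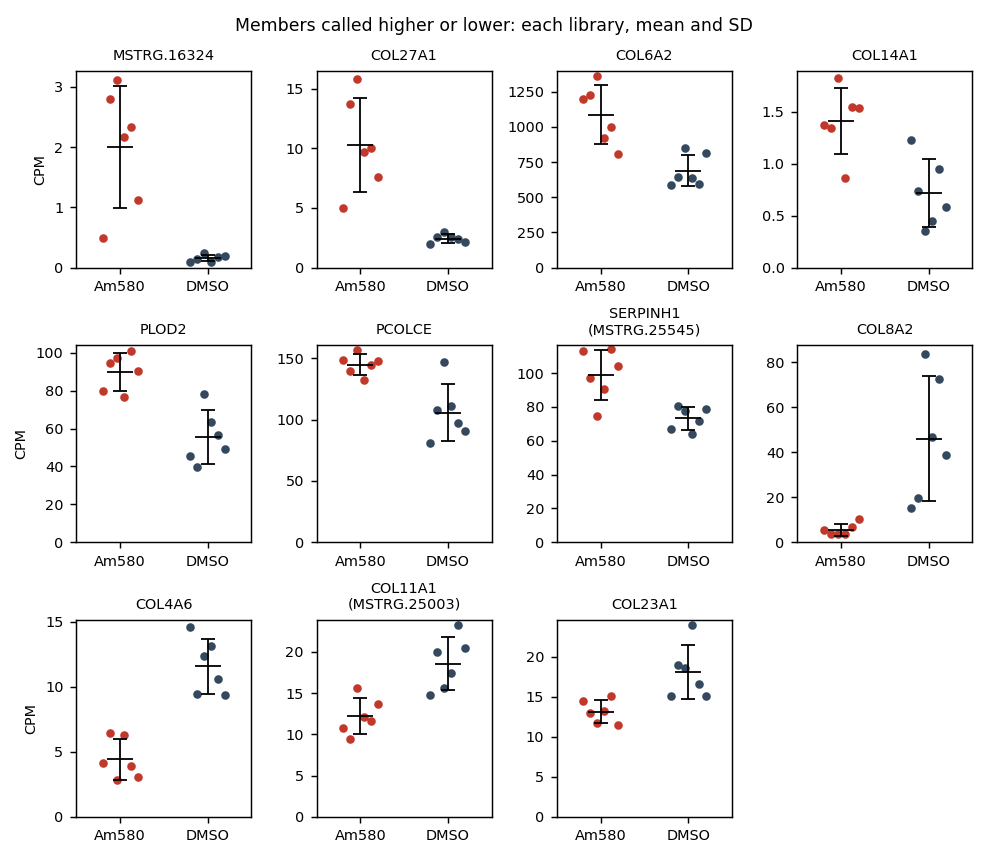
Values in CPM of the 11 members called higher or lower are shown for each library (points), with the mean and SD, Am580 in red on the left and DMSO in dark grey on the right of each panel, all axes starting at 0. Treatments are fully apart for MSTRG.16324, COL27A1, COL8A2 and COL4A6 and touch or overlap for the other 7.

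Exon lengths give a view of these genes that expression does not. The helix regions of vertebrate fibrillar collagen genes are known for exons of 54 bases or simple relatives of it. In the assembly's reference transcripts, 74 of 198 internal exons of the fibrillar genes (37.4%) had exactly 54 bases, against 18.0% in FACIT genes, 4.90% in network genes, 2.16% in genes of modifying proteins and 0.541% of 138355 internal exons in all other reference genes. COL3A1 had 21 of 52, COL5A2 22 of 58 and the COL11A1 gene MSTRG.7130 30 of 69. MSTRG.16324 had 1 of 10, COL27A1 (MSTRG.18454) 0 of 5 and the COL11A1 gene MSTRG.25003 0 of 3. The uncalled fragment named COL5A1 (MSTRG.29222) had 0 of 1. Counting every multiple of 9 bases, as 54 is, MSTRG.16324 had 3 of 10, COL27A1 (MSTRG.18454) 1 of 5 and MSTRG.25003 0 of 3. The share was 66.7% in the fibrillar class and 13.1% in all other reference genes. The models of the 3 called fibrillar genes, like that fragment, thus hold few internal exons and few or none of exactly 54 bases. With so few exons, they cannot show whether the helix region is lacking or only not covered. COL5A2 and COL3A1 lie tail to tail on AMEXG_0030002196, COL5A2 on the plus strand from 4960053 to 5412612 and COL3A1 on the minus strand from 5379035 to 5587968. The named gene nearest to MSTRG.16324 in the assembly is CACNA1B, 810.5 kb away, while COL5A1 in the RefSeq gene table of another assembly (UKY_AmexF1_1) is flanked by OLFM1 and RXRA.

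Of the 5 network collagens 2 fell and none rose, which is 40% called, against 14.1% of all genes tested. COL8A2 and COL4A6 fell with Am580 without overlap, while COL8A1 and COL4A2, chains of the same collagen types, were not called. COL8A2 (MSTRG.13596, AMEXG_0030003584 from 6939325 to 7514868), a chain of the sheet-forming type VIII collagen, had 3.55, 4.67 and 10.3 CPM with Am580, against 15.0, 42.8 and 83.6 CPM with DMSO. The DMSO libraries differed widely among themselves, with replicates 1 and 2 lowest (15.0 and 19.5 CPM) and replicate 3 highest, yet all were above the highest Am580 library. The fold was 0.122 (95% interval 0.062 to 0.239, edgeR adjusted p = 0.000493). COL8A1, its partner chain, had 8.30, 14.6 and 16.0 CPM with Am580, against 7.17, 11.7 and 16.2 CPM with DMSO, and a log2 fold change of 0.12 (SE 0.23, edgeR adjusted p = 0.804). Per length, the ratio of COL8A2 to COL8A1 was 0.110 to 0.592 in Am580 libraries and 0.958 to 3.57 in DMSO libraries. COL8A2 itself did not overlap between treatments, so the gap in this ratio largely restates its fall.

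COL4A6 (MSTRG.4592, AMEXG_0030000909 from 11874602 to 13330722), a chain of the type IV collagen of basement membranes, had 2.81, 4.02 and 6.43 CPM with Am580, against 9.35, 11.5 and 14.6 CPM with DMSO. All 6 Am580 libraries were below all 6 DMSO libraries, with a fold of 0.383 (95% interval 0.276 to 0.532, edgeR adjusted p = 0.000808). COL4A2, a chain found in nearly all basement membranes, had 86.6, 98.7 and 116 CPM with Am580, against 65.4, 91.4 and 115 CPM with DMSO. Its fold of 1.11 had a 95% interval of 0.920 to 1.33 (edgeR adjusted p = 0.521). The per-length ratio of COL4A6 to COL4A2 was 0.0182 to 0.0507 in Am580 libraries and 0.0608 to 0.166 in DMSO libraries. This gap, too, largely restates the fall of COL4A6, which did not overlap by itself. Schwann cells make basement membranes too, and the summed Schwann cell list was at 106 to 295 CPM with Am580 and 181 to 480 CPM with DMSO, while the endothelial list was at 184 to 294 CPM with Am580 and 170 to 308 CPM with DMSO. The epidermal genes other than KRT18 summed to 10.6 to 28.8 CPM with Am580 and 19.2 to 119 CPM with DMSO. DMSO replicate 1 was the highest library for both that sum and COL4A6. DMSO replicate 3 had the lowest epidermal sum of the DMSO libraries, 19.2 CPM, yet 12.4 CPM of COL4A6. The part of these cell types in the COL4A6 difference was not tested.

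Of the 7 FACIT genes 1 rose and none fell, which is 14.3%, near the 14.1% called among all genes tested. COL12A1, which bridges fibrils in dense connective tissue and is the most abundant of the class, had 1169, 1732 and 2389 CPM with Am580, against 950 (replicate 1), 1565 and 2206 CPM with DMSO. The ranges nearly coincide, and its fold of 1.06 had a 95% interval of 0.764 to 1.48 (edgeR adjusted p = 0.856). COL16A1 had 142, 183 and 186 CPM with Am580, against 101, 161 and 193 CPM with DMSO, and COL19A1 2.77 ± 0.958 CPM with Am580 and 2.82 ± 1.52 CPM with DMSO (SD, n = 6 each), and neither passed. COL14A1, which binds fibril surfaces, was the FACIT gene called. It had 0.862, 1.45 and 1.82 CPM with Am580, against 0.355, 0.662 and 1.23 CPM with DMSO. The treatments overlap through Am580 replicate 4 and DMSO replicates 1 and 5, and the log2 fold change was 0.98 (SE 0.29, edgeR adjusted p = 0.0407). Leaving out each library in turn kept the call 3 of 12 times (Am580 replicate 4 and DMSO replicates 1 and 5), with edgeR adjusted p-values up to 0.0877. COL20A1, COL21A1 and COL22A1 were at 0.275 to 5.61 CPM on average with Am580 and 0.238 to 6.18 CPM with DMSO, and none passed.

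COL6A2, a chain of collagen VI, was the abundant collagen that rose. The gene (MSTRG.11404, AMEXG_0030002786 from 945855 to 1129015) had 806, 1098 and 1360 CPM with Am580, against 589, 643 and 848 CPM with DMSO. Am580 replicate 6 alone lay within the DMSO range, below DMSO replicates 3 and 6, and the fold was 1.58 (95% interval 1.27 to 1.95, edgeR adjusted p = 0.00699). COL6A3, the large chain of the same filament, had 252, 384 and 445 CPM with Am580, against 180, 254 and 334 CPM with DMSO. The difference of 0.52 on the log2 scale (SE 0.17) missed the threshold (edgeR adjusted p = 0.0643). Am580 replicate 6 was again the lowest, and without it, as without DMSO replicate 6, the gene was called (edgeR adjusted p = 0.0276 and 0.0349, and up to 0.133 with another library left out). The per-length ratio of COL6A3 to COL6A2 overlapped between treatments, at 0.137 to 0.204 with Am580 and 0.135 to 0.211 with DMSO. That of COL6A2 to COL3A1 did not overlap, at 0.171 to 0.291 with Am580 and 0.101 to 0.152 with DMSO. COL6A2 and COL3A1 each overlapped between treatments by themselves, so this gap appears only in their ratio. The ratio includes the called rise of COL6A2, so it is not evidence independent of that call.

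Among the membrane-bound and remaining collagens 1 gene fell. With COL6A2, 2 of the 10 tested other collagens were called (20%), against 14.1% of all genes tested. COL23A1, a transmembrane collagen, had 11.4, 13.1 and 15.1 CPM with Am580, against 15.0, 17.6 and 24.0 CPM with DMSO. The treatments meet at about 15 CPM, and the log2 fold change was -0.46 (SE 0.12, edgeR adjusted p = 0.0231), not called without DMSO replicate 2 (0.0569), Am580 replicate 3 (0.0542) or Am580 replicate 6 (0.0518). COL13A1, a related transmembrane collagen chosen after its values were seen, averaged 31.4 ± 5.48 CPM with Am580 and 41.8 ± 9.85 CPM with DMSO (SD, n = 6 each) and did not pass (edgeR adjusted p = 0.122), though it did without DMSO replicate 3 (0.0213). COL18A1, a basement membrane collagen that is the source of endostatin, had 76.5 to 98.3 CPM with Am580 and 81.3 to 103 CPM with DMSO. Its fold of 0.942 had the narrowest interval of the collagens, 0.832 to 1.07 (95%, edgeR adjusted p = 0.582). COL25A1 and the 2 genes named COL26A1 had mean values of 1.17 to 9.36 CPM with Am580 and 0.940 to 7.68 CPM with DMSO, and none passed.

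COL17A1, COL7A1, COL10A1 and LOXL4 had their highest value in a library that also stood apart in epidermal or cartilage transcripts, and none of them passed the test with all libraries. COL17A1, the hemidesmosome collagen of basal keratinocytes, was at 78.5 CPM in DMSO replicate 1 and at 0.651 to 3.77 CPM in the other DMSO libraries, while the Am580 libraries had 2.50, 4.12 and 8.90 CPM. DMSO replicate 1 also had the most EPCAM (35.4 CPM), against 2.01 to 7.42 CPM in Am580 libraries and 1.66 to 7.54 CPM in the other DMSO libraries. The 8 epidermal genes other than KRT18 summed to 10.6 to 28.8 CPM with Am580 and 19.2 to 119 CPM with DMSO, and KRT18 itself averaged 435 CPM with Am580 and 595 CPM with DMSO. Of the 7 tested epidermal genes, KRT18 among them, 3 were called lower and none higher, where 7.21% of all genes tested were called lower. PKP1 had 0.427 to 2.04 CPM with Am580 and 5.98 to 13.6 CPM with DMSO. TP63 (MSTRG.22689) had 1.74 to 5.96 CPM with Am580, 7.01 CPM in DMSO replicate 1 and 0.352 to 0.788 CPM in the other DMSO libraries. With all libraries TP63 did not pass (log2 fold change 1.25, SE 0.72, edgeR adjusted p = 0.315). Leaving out each library in turn, it was called higher 1 of 12 times (lowest edgeR adjusted p = 0.000373). Its log2 fold changes over these fits were 1.04 to 2.83. The log2 fold change of COL17A1 was -1.60 (SE 1.07, edgeR adjusted p = 0.396) with all libraries and 1.32 (edgeR adjusted p = 0.103) without DMSO replicate 1. COL7A1, which anchors epidermis to dermis and was chosen after its values were seen, had 9.94, 15.4 and 25.7 CPM with Am580, against 11.2, 28.1 and 69.8 CPM with DMSO. Its highest value was also that of DMSO replicate 1, and it did not pass (log2 fold change -1.06, SE 0.37, edgeR adjusted p = 0.0773), though it did without DMSO replicate 6 (0.0218).

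COL10A1, the collagen of hypertrophic cartilage, had 1.23, 4.30 and 11.6 CPM with Am580, against 6.0, 10.6 and 76.0 CPM with DMSO. Its highest library was DMSO replicate 3, and the log2 fold change of -2.14 (SE 0.73, edgeR adjusted p = 0.0734) was -1.09 without that library. Without Am580 replicate 1 it was -2.61 and passed (edgeR adjusted p = 0.0394). LOXL4, a lysyl oxidase chosen after its values were seen, was at 12.7 CPM in Am580 replicate 1, 7.62 CPM in Am580 replicate 3 and 23.4 CPM in DMSO replicate 3, with 1.26 to 2.90 CPM in the other Am580 libraries and 2.73 to 7.83 CPM in the other DMSO libraries. These 3 libraries led in the sum of the 3 collagen IX genes, which mark cartilage, with 470, 415 and 812 CPM. That sum was 84.9 to 147 CPM in the other Am580 libraries and 55.4 to 145 CPM in the other DMSO libraries. DMSO replicate 5 had more LOXL4 (7.83 CPM) than Am580 replicate 3, yet a collagen IX sum of 138 CPM. DMSO replicate 6, the second highest library for COL10A1 (18.0 CPM), had the lowest collagen IX sum, 55.4 CPM. LOXL4 did not pass (log2 fold change -0.70, SE 0.67, edgeR adjusted p = 0.579) and stood at 0.052 without DMSO replicate 3. With Am580 replicates 1 and 3 and DMSO replicates 1 and 3 all left out, 6 members were called higher and 3 lower. That fit called 2868 of all 25879 genes tested, against 3660 with all libraries. The part of cartilage or epidermis in the values of the members was not tested beyond leaving libraries out.

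**Figure D4:**
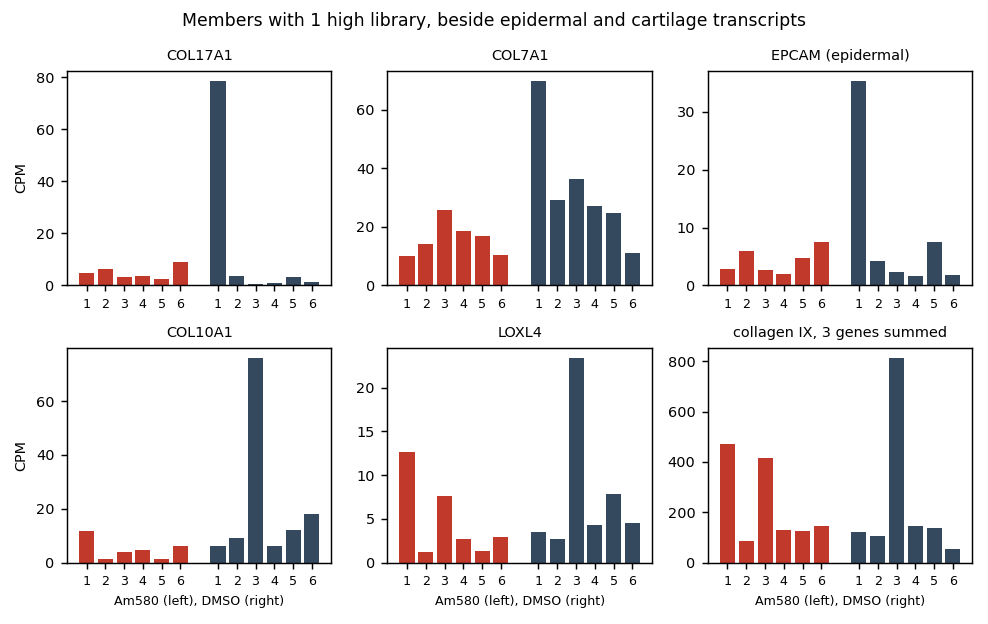
Bars give the CPM of COL17A1, COL7A1, EPCAM, COL10A1, LOXL4 and the summed collagen IX genes in each library, Am580 replicates in red on the left and DMSO replicates in dark grey on the right. DMSO replicate 1 is the highest bar for COL17A1, COL7A1 and EPCAM (78.5, 69.8 and 35.4 CPM), and DMSO replicate 3 for COL10A1, LOXL4 and collagen IX (76.0, 23.4 and 812 CPM).

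Of the 16 tested genes of modifying proteins 3 rose and none fell, and the median log2 fold change was 0.19. The share called was 18.8%, against 14.1% of all genes tested. Fold changes were above 0 for 13 of 16, where 50.5% of all genes tested were above 0, and for 13 or 14 of 16 under each scaling tried. MSTRG.1641, MSTRG.25545 and MSTRG.25546, all named SERPINH1, are among the 13, so these may not all be separate genes. PLOD2, the lysyl hydroxylase of the collagen ends, had the largest fold change of the 3 called genes. It had 76.6, 92.4 and 101 CPM with Am580, against 39.5, 52.9 and 78.4 CPM with DMSO. The highest DMSO library, replicate 3, lay just above the lowest Am580 library, replicate 4, and the fold was 1.62 (95% interval 1.29 to 2.03, edgeR adjusted p = 0.00699). PLOD1, which hydroxylates lysines of the helix, had 90.5, 99.7 and 126 CPM with Am580, against 78.0, 93.6 and 122 CPM with DMSO, and did not pass (edgeR adjusted p = 0.547). The per-length ratio of PLOD2 to PLOD1 was 1.19 to 1.40 in Am580 libraries and 0.715 to 1.01 in DMSO libraries. PLOD2 and PLOD1 each overlapped by themselves, so this gap appears only in their ratio. The ratio includes the called rise of PLOD2 and is not evidence independent of that call. PLOD2 is counted on a gene model of 1 exon of 2633 bases (AMEXG_0030121022 from 30643 to 33275), so only part of the gene may be covered.

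PCOLCE, which enhances removal of the procollagen C-terminal end, had 133, 146 and 157 CPM with Am580, against 80.9, 102 and 147 CPM with DMSO. The Am580 libraries varied by 5.72% of their mean and the DMSO libraries by 21.9%, with DMSO replicate 3 alone inside the Am580 range, and the log2 fold change was 0.45 (SE 0.12, edgeR adjusted p = 0.0251). It was not called without Am580 replicate 3, DMSO replicate 5 or DMSO replicate 6 (edgeR adjusted p up to 0.0587). SERPINH1, the chaperone also known as HSP47, is named on 4 genes. The gene MSTRG.25545 had 74.4, 101 and 114 CPM with Am580, against 63.9, 74.6 and 80.7 CPM with DMSO. The rise on the log2 scale was 0.43 (SE 0.11, edgeR adjusted p = 0.0151), with Am580 replicate 3 within the DMSO range. The more abundant gene, MSTRG.1641, had 244, 266 and 381 CPM with Am580, against 196, 255 and 291 CPM with DMSO, and did not pass (log2 fold change 0.19, SE 0.13, edgeR adjusted p = 0.402). MSTRG.1641 lies next to RPS3 and GDPD5, as SERPINH1 does in the RefSeq table. MSTRG.25546, on the opposite strand of MSTRG.25545 and at 0.156 to 2.05% of its counts, had 1.82 ± 0.333 CPM with Am580 and 1.06 ± 0.499 CPM with DMSO (SD, n = 6 each). The treatments of MSTRG.25546 did not overlap, yet it did not pass (edgeR adjusted p = 0.226).

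The other tested genes of modifying proteins were not called. P4HA1, the main catalytic chain of prolyl 4-hydroxylase, had 147, 179 and 229 CPM with Am580, against 116, 155 and 204 CPM with DMSO, a fold of 1.15 with a 95% interval of 0.913 to 1.44 (edgeR adjusted p = 0.475). P4HA2, its alternative chain, averaged 9.49 ± 2.09 CPM with Am580 and 8.02 ± 1.72 CPM with DMSO (SD, n = 6 each), and the per-length ratio of P4HA2 to P4HA1 overlapped between treatments. LOXL2, the most abundant lysyl oxidase among the members per length, had 158, 227 and 253 CPM with Am580, against 129, 208 and 233 CPM with DMSO, and a fold of 1.12 with a 95% interval of 0.864 to 1.44 (edgeR adjusted p = 0.633). LOXL1, P3H1, P3H3 (MSTRG.17170), P3H4, PLOD3 and PCOLCE2 had log2 fold changes of -0.42 to 0.20, and none passed.

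Beside the members, a list of 63 symbols of collagen synthesis, export, trimming, assembly and reception gave 46 tested genes. With Am580, 7 were called higher and 2 lower, where 14.1% of all genes tested were called, 6.93% higher and 7.21% lower. The list's median log2 fold change was 0.14. None of the 12 tested genes of chain modification and folding and none of the 7 of procollagen export was called. Trimming held the largest changes, with 2 of 4 tested genes higher and 1 lower. ADAMTS3, which removes the procollagen N-terminal end, had 10.7, 13.2 and 26.4 CPM with Am580, against 2.31, 4.05 and 5.83 CPM with DMSO. Its treatments did not overlap, and the log2 fold change was 2.03 (SE 0.26, edgeR adjusted p = 0.000186). BMP1, the proteinase that PCOLCE enhances, had 186, 210 and 229 CPM with Am580, against 64.1, 104 and 115 CPM with DMSO. It rose without overlap by 1.07 on the log2 scale (SE 0.13, edgeR adjusted p = 7.54e-05), on a gene (MSTRG.8561) that also carries a transcript of another reference gene. FURIN, which activates several of these proteinases, fell to 137 ± 24.8 CPM with Am580, against 192 ± 22.3 CPM with DMSO (SD, n = 6 each), with no overlap (log2 fold change -0.49, edgeR adjusted p = 0.0194).

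Among assembly partners and receptors, the collagen-activated receptor kinase DDR1 averaged 41.1 CPM with Am580 and 21.0 CPM with DMSO (log2 fold change 0.97, SE 0.21, edgeR adjusted p = 0.00722). The matrix protein FBLN1 averaged 306 CPM with Am580 and 185 CPM with DMSO (log2 fold change 0.72, SE 0.14, edgeR adjusted p = 0.00408). ITGA11, a collagen-binding integrin chain, averaged 180 CPM with Am580 and 110 CPM with DMSO (log2 fold change 0.72, SE 0.20, edgeR adjusted p = 0.0285) and kept its call 5 of 12 times when each library was left out in turn (Am580 replicates 1 and 4 and DMSO replicates 1, 3 and 5). EMILIN1, an elastic fibre protein, averaged 180 CPM with Am580 and 355 CPM with DMSO (log2 fold change -0.98, SE 0.22, edgeR adjusted p = 0.00786). FN1 and SPARC, the other called genes, were higher, though SPARC was called in 7 of 9 alternatives (edgeR adjusted p = 0.0161, and up to 0.0762 over them). The osteoclast collagenase CTSK, no member of these lists, had 8.48 to 20.2 CPM with Am580 and 89.5 to 158 CPM with DMSO.

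The summed collagen level overlapped between treatments, while shares of single chains in it did not all overlap. Over the 30 collagen genes the sum of CPM per kb was 1586 ± 329 with Am580 and 1670 ± 403 with DMSO (SD, n = 6 each), a ratio of 0.950. The fibrillar sum was 1158 ± 274 with Am580 and 1322 ± 339 with DMSO, and the sum of other collagens, which COL6A2 dominates, was 250.4 ± 45.5 with Am580 and 173 ± 22.9 with DMSO, overlapping at 188 to 312 with Am580 and 152 to 203 with DMSO. As a share of each library's collagen sum, fibrillar chains made up 68.5 to 75.1% with Am580 and 77.0 to 81.3% with DMSO, with no overlap. COL6A2 made up 9.60 to 16.1% with Am580 and 6.5 to 8.69% with DMSO, also with no overlap, while COL3A1 made up 51.0 to 59.0% with Am580 and 57.1 to 64.5% with DMSO, which overlap. Shares within a library sum to 100%, so a higher share of COL6A2 lowers the others, and these sums were given no test. The modifying genes summed to 356 ± 31.5 CPM per kb with Am580 and 297 ± 47.5 CPM per kb with DMSO. These sums overlapped, at 324 to 413 with Am580 and 226 to 376 with DMSO.

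**Figure D5:**
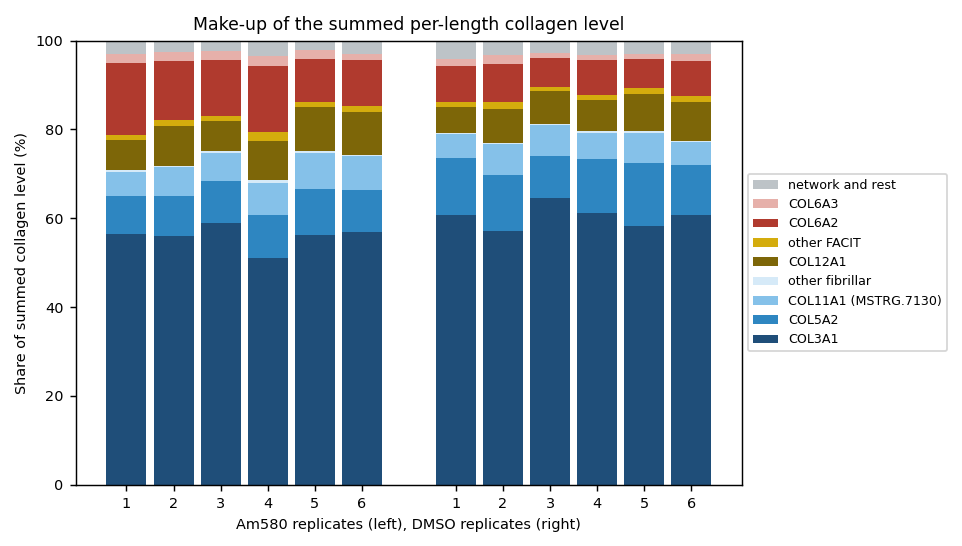
Stacked bars give the share in percent of each collagen or group in the summed CPM per kb of the 30 collagen genes, for the 6 Am580 libraries on the left and the 6 DMSO libraries on the right. The dark red COL6A2 band runs from 9.60 to 16.1% in Am580 libraries and from 6.5 to 8.69% in DMSO libraries, above the blue fibrillar bands.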

How the data were processed

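Poly-A RNA of 12 blastema mesenchymes, 6 per treatment, was sequenced with a stranded kit. Per the study's methods and processing notes, the authors trimmed reads (Trimmomatic 0.36), aligned them to AmexG_v3.0.0 (HISAT2 2.1.0), merged transcripts (StringTie 1.3.4d) and deposited raw counts of read pairs per gene from featureCounts (Subread 1.6.2), stranded, without normalization. The deposited merged assembly gave names, coordinates and exon lengths, and the deposited table of normalized abundance was not used.

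The counts were tested with edgeR 4.0.16 in R 4.3.3 (legacy quasi-likelihood fit, TMM, no covariates, filter and threshold as in the study), with limma 3.58.1 and DESeq2 1.42.0 as alternatives. Python 3.11.15 was used for summaries and plotting. Standard errors and 95% intervals came from the F statistic and its degrees of freedom. The levels per length are CPM divided by the kilobases of all exons of a gene. The members, gene lists and tests were chosen with earlier results of these data known.

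Genes described singly were the called members, those the study names, the 3 most abundant per class in DMSO, the largest change per class at a mean of at least 1 CPM, and partners or genes said to be chosen after their values were seen. The p-values measure the spread between blastemas of separate animals. Of 53 collagen or modifying symbols of the same pattern in RefSeq, 40 are carried by members. The pipeline was tested on simulated counts.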

Additional observations from a re-analysis of the deposited data

Results flagged for a closer look

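The highest and the lowest library of each treatment were set against the other 5 on log2 of CPM plus 0.1 for 41 genes and 5 class sums. Of the 92 sets of 6 libraries tested, 4 held a library whose gap to its nearest neighbour passed the 95% critical value of Dixon's test, and chance alone flags about 1 set in 20. COL17A1 was at 78.5 CPM in DMSO replicate 1, above the other DMSO libraries. COL16A1 was at 142 CPM in Am580 replicate 1, below the other Am580 libraries. SERPINH1 (MSTRG.25546) was at 0.123 CPM in DMSO replicate 6, below the other DMSO libraries. BMP1 (MSTRG.8561) was at 64.1 CPM in DMSO replicate 1, below the other DMSO libraries, and without that library it was still called higher.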

How the results depend on the processing

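The 7 members called higher and 4 called lower became 6 to 8 and 3 to 6 over 9 other scalings, filters, tests and sample choices, and 5 to 7 and 3 to 5 when each library was left out. The number called among all genes moved too. It was 3660 in the fit used above, and 3018 to 3956 with each library left out. Over the 9 alternatives it was 2868 (without the 4 libraries named next) to 4707 (DESeq2). Genes tested were 25879, but 25685 with filterByExpr and 34576 with no filter. Without the 4 libraries high in cartilage or epidermal transcripts (Am580 replicates 1 and 3, DMSO replicates 1 and 3), a choice made after seeing the data, the members called higher and lower were 6 and 3. With replicate number as a block they were 6 and 5, COL5A2 being called lower (edgeR adjusted p = 0.0207, against 0.0207 to 0.273 over the alternatives) and COL14A1 not called (0.0532). The numbers do not pair the libraries: same-numbered deviations correlated at -0.172 to 0.235, and 1 of 6 numbers matched itself best.

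Directions turned for genes that were not called. The log2 fold change of COL17A1 was 1.20 without the 4 libraries, 0.60 with limma-voom and 0.73 with the replicate block, and -1.87 to 1.32 with each library left out. That of COL19A1 was 0.034 with library size only, 0.064 with limma-voom, 0.045 with the replicate block and 0.0071 with upper-quartile scaling, and -0.17 to 0.32 with each library left out. COL4A3BP was at 0.026 with library size only, 0.0051 with upper-quartile scaling and -0.061 to 0.014 with each library left out, and COL8A1 at -0.076 without the 4 libraries. With each library left out, the COL11A1 gene MSTRG.7130 ranged from -0.067 to 0.24, COL12A1 from -0.033 to 0.20 and LOXL4 from -1.28 to 0.052. The cause of these changes was not tested. Of 9 alternatives, COL23A1 was not called in 2, library size only (edgeR adjusted p = 0.0519) and without the 4 libraries (0.0698), and COL14A1 not in 3, no filter (0.0521), the replicate block (0.0532) and without the 4 libraries (0.0797). FURIN was not called with library size only (0.0842), and SPARC not with the replicate block or without the 4 libraries (up to 0.0762). COL10A1, COL6A3 and COL7A1 were called by DESeq2 (adjusted p = 0.0273, 0.0248 and 0.0238), which called 4707 genes in all. The class sums changed by less than the spread between libraries under other scaling or transcript lengths. Low counts limit MSTRG.16324 in DMSO libraries and the 4 members not tested. They also limit tested members such as COL21A1 (2 to 14 counts per library) and the COL5A1 fragment MSTRG.29222 (3 to 48). The same holds for SERPINH1 gene MSTRG.25546 (4 counts in DMSO replicate 6) and the called COL14A1 (12 to 73).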
